A study of Mus musculus with 8 samples.

Results

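Mouse embryonic fibroblast cultures, grown from dissociated embryos, can carry along macrophages and other blood cells from the embryo, and their genes are then read in the same RNA as those of the fibroblasts. The genes described here are 35 macrophage and leukocyte genes, taken by name out of 24972 in the deposited table of normalized read counts. All 35 matched a row, 33 were above 0 in every library, and 32 passed the minimum mean of 10 normalized counts needed for testing. The other 3, Clec4n, F13a1 and Cd163, are given by their values.

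The series holds 8 RNA-seq libraries of total RNA from untreated cultures of day 14 embryos, passaged before RNA was taken, with 2 libraries for each of 4 genotypes. WT carried no targeted allele. Tfam+/- had lost 1 of its Tfam alleles, and Tfam encodes the protein that packages mitochondrial DNA and starts its transcription. Zbp1-/- lacked Zbp1, which encodes an interferon-induced sensor of Z-form nucleic acids, and Tfam+/-Zbp1-/- carried both changes. How the alleles were made is not stated in the labels. No label says whether replicates of a genotype are separate embryos or cultures, so p-values measure only the spread between these libraries, which may be technical.

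Macrophages of the embryo descend from yolk sac and fetal liver progenitors. Their identity is set by the transcription factor PU.1 (Spi1), and their survival depends on the receptor Csf1r and its ligands Csf1 and Il34. They engulf dead cells, supply most of the complement protein C1q, and signal through receptors that borrow the adaptors Tyrobp and Fcer1g. Macrophages also respond to type I interferon, the cytokine that induces the interferon-stimulated genes, so both gene groups can be read in the same culture. In bulk RNA, fewer macrophages and less macrophage RNA per cell cannot be told apart.

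Promoter sequences are shown for 3 members, since PU.1 is the factor of the lineage and the interferon response is the other program measured in these cultures. PU.1 recognises a core with the letters GAGGAA, and the interferon-induced factors of the STAT and IRF families recognise the interferon-stimulated response element, searched here as GAAA, any 2 bases (NN), then GAAA. Both strands were searched in windows from 250 bases before to 50 after the annotated start (RefSeq, GRCm38.p6), and overlapping matches were allowed between the motifs. Capitals mark the matches, each sequence is written 5′ to 3′ along the gene, and a match on the opposite strand appears as the reverse complement.

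Itgam: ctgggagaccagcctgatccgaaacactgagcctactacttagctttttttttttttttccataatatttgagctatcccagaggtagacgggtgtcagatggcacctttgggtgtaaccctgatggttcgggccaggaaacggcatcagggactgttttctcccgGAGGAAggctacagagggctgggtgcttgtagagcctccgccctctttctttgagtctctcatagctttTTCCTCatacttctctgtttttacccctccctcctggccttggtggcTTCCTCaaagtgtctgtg
Ctss: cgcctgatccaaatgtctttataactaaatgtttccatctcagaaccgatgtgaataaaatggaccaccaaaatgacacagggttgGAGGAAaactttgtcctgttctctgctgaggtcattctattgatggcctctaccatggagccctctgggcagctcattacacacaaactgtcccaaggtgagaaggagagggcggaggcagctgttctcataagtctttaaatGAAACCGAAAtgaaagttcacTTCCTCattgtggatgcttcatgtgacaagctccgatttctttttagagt
Cybb: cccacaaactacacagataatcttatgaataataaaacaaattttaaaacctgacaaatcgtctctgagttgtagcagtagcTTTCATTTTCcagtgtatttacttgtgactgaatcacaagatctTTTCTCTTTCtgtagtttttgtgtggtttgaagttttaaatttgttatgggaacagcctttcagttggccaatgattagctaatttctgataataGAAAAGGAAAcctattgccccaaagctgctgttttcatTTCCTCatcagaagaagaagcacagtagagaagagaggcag

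The Itgam window (chr7:128062390-128062689, plus strand) held 3 PU.1 cores and no interferon element. The Ctss window (chr3:95526536-95526835, plus strand) held 2 PU.1 cores and 1 interferon element. The Cybb window (chrX:9469275-9469574, minus strand) held 1 PU.1 core and 3 interferon elements. The printed windows are examples that hold matches and do not stand for all members. The windows of Lyz2, Mpeg1 and Lcp1, members of higher level, held neither motif. Promoters were found for 26 of the 35 members. Of these, 18 (69.2%) held a PU.1 core, against 28.3% of 27025 promoters of all genes and 15 of 39 (38.5%) promoters of interferon-stimulated genes. The interferon element was in 4 of 26 member promoters (15.4%), those of Aif1, Ctss, Cybb and Ncf1, against 3.5% of all promoters and 20 of 39 (51.3%) promoters of interferon-stimulated genes. These are matches of letters, and binding was not measured.

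The targeted genes checked the labels. Tfam had 629 and 610.1 normalized counts for WT, 278 and 365 for Tfam+/-, 675 and 471 for Zbp1-/- and 424 and 375 for Tfam+/-Zbp1-/-, so the 4 libraries labelled Tfam+/- were below the other 4. Zbp1 had 7.34 and 3.19 for WT, 64.6 and 69.8 for Tfam+/-, 3.79 and 1.03 for Zbp1-/- and 0.86 and 2.69 for Tfam+/-Zbp1-/-. WT cultures thus had little Zbp1 RNA, and the libraries labelled Zbp1-/- overlapped WT, so Zbp1 checks those labels only against Tfam+/-. Library totals ran from 16752835 to 18303036 normalized counts. Tfam+/- replicate 1 and Zbp1-/- replicate 2 differed from their partners in a shared way that followed base composition and transcript length. This shift is described with the members it moved.

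Macrophage RNA was present in every culture. Summed over the 35 members, the level was 9638 and 9551 normalized counts for WT, 12778 and 11878 for Tfam+/-, 6503 and 5950.1 for Zbp1-/- and 4970.2 and 5182 for Tfam+/-Zbp1-/-. The genotypes did not overlap, and their order was Tfam+/-, WT, Zbp1-/-, Tfam+/-Zbp1-/-. Relative to the WT mean the sum was 1.285 in Tfam+/-, 0.649 in Zbp1-/- and 0.529 in Tfam+/-Zbp1-/-. The sums were a description and were not tested.

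Lyz2, the lysozyme of macrophages, supplied 24.73% to 29.77% of the summed level. Without it the ratios to WT were 1.339, 0.694 and 0.547 in the same order of genotypes. A narrower set of 26 members regarded as restricted to leukocytes gave 1.403, 0.674 and 0.531. Per kilobase of transcript, the mean level over the 8 libraries was highest for Lyz2 (1724 normalized counts per kilobase), C1qb (363), C1qa (319), C1qc (287) and Ctss (278). The leukocyte phosphatase Ptprc, or CD45, was at 20.8 per kilobase, Clec4n at 5.0, F13a1 at 2.3 and Cd163 at 0.1.

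**Figure D1:**
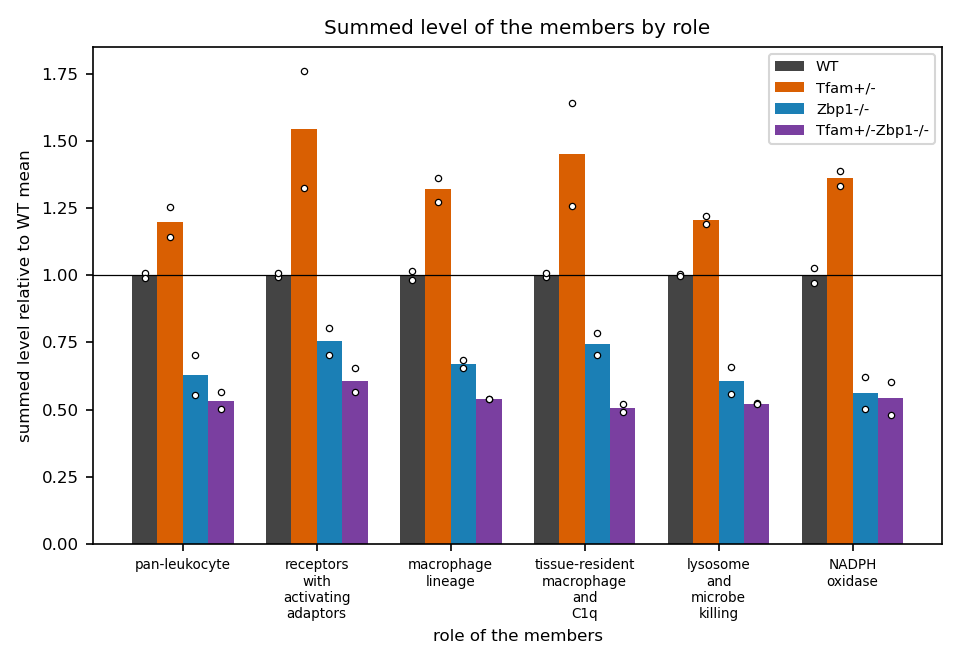
Summed normalized counts of the members in each of 6 role groups, relative to the WT mean (vertical axis), by genotype. Bars start at 0 and show genotype means, and points show the 2 libraries. In each role group the Tfam+/- mean lies above WT and both genotypes without Zbp1 lie below it.

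The pan-leukocyte members encode the phosphatase Ptprc, the tetraspanin Cd53, the lysosomal protein Laptm5, the actin regulators Coro1a and Lcp1, the glycoprotein Cd52, the integrin chain Itgb2 and the SLAM family receptor Cd84. Lcp1 had the highest level of the group, with 644 and 653 normalized counts for WT, 737 and 811 for Tfam+/-, 487 and 392 for Zbp1-/- and 325 and 388 for Tfam+/-Zbp1-/-. Laptm5 had 293 and 281 for WT, 413 and 370.1 for Tfam+/-, 201 and 198 for Zbp1-/- and 139 and 140.3 for Tfam+/-Zbp1-/-. Both genes followed the order of the summed level with no overlap between genotypes, as did 14 of the 32 tested members and 0.618% of all genes tested.

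Itgb2, which pairs with Itgam to form complement receptor 3, had 102 and 90.5 for WT, 134 and 127 for Tfam+/-, 61.3 and 53.7 for Zbp1-/- and 54.0 and 35.4 for Tfam+/-Zbp1-/-. Coro1a had 119 and 107 for WT, 168 and 142 for Tfam+/-, 76.3 and 101 for Zbp1-/- and 66.7 and 89.0 for Tfam+/-Zbp1-/-. Both had every library without Zbp1 below every library with it.

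Ptprc had 145 and 139 for WT, 96.6 and 169 for Tfam+/-, 95.2 and 49.9 for Zbp1-/- and 79.1 and 69.2 for Tfam+/-Zbp1-/-. Its 2 Tfam+/- libraries lay on either side of WT and its 2 Zbp1-/- libraries on either side of Tfam+/-Zbp1-/-. Cd53 (33.9 to 179 over the 8 libraries) and Cd84 (37.0 to 168) had the same spread. Cd52, the lowest gene of the group, ran from 8.51 to 70.4.

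Among the receptors and their adaptors, Tyrobp, also called DAP12, and Fcer1g, the gamma chain of Fc receptors, carry the tyrosine activation motif. Trem2, Clec4n and the IgG receptors Fcgr1 and Fcgr3 signal through it. Fcer1g had 145 and 143 normalized counts for WT, 213 and 199.96 for Tfam+/-, 106 and 95.8 for Zbp1-/- and 88.0 and 91.3 for Tfam+/-Zbp1-/-. Tyrobp had 155 and 157 for WT, 283 and 188 for Tfam+/-, 106 and 111 for Zbp1-/- and 97.4 and 103 for Tfam+/-Zbp1-/-. Both adaptors followed the full order of genotypes without overlap.

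Fcgr3 had 139 and 142 for WT, 237 and 172 for Tfam+/-, 88.5 and 128 for Zbp1-/- and 63.1 and 74.5 for Tfam+/-Zbp1-/-. Trem2, a lipid sensor, had 91.4 and 96.6 for WT, 187 and 134 for Tfam+/-, 87.1 and 103 for Zbp1-/- and 50.2 and 76.6 for Tfam+/-Zbp1-/-. Zbp1-/- and WT thus overlapped for Trem2, while Tfam+/- was above and Tfam+/-Zbp1-/- below both. Fcgr1, the high-affinity IgG receptor, had 37.6 and 37.5 for WT, 83.2 and 57.8 for Tfam+/-, 15.0 and 26.7 for Zbp1-/- and 23.3 and 31.9 for Tfam+/-Zbp1-/-. Clec4n, the C-type lectin Dectin-2, was listed at 5.29 and 5.76 in WT, 15.3 and 14.4 in Tfam+/-, and 0.00 to 3.86 in the 4 libraries without Zbp1.

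The genes of macrophage lineage were Spi1, Csf1r, the adhesion receptor Adgre1 (F4/80), the fractalkine receptor Cx3cr1, the integrin chain Itgam (CD11b) and Aif1 (Iba1). Csf1r had 469 and 494 normalized counts for WT, 702 and 571 for Tfam+/-, 353 and 315 for Zbp1-/- and 237 and 243 for Tfam+/-Zbp1-/-. Adgre1 had 264 and 211 for WT, 294 and 339 for Tfam+/-, 180.1 and 178 for Zbp1-/- and 146 and 144 for Tfam+/-Zbp1-/-. Both defining receptors of macrophages followed the full order of genotypes.

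Spi1 had 49.6 and 38.2 for WT, 78.1 and 65.4 for Tfam+/-, 43.3 and 36.9 for Zbp1-/- and 20.7 and 26.3 for Tfam+/-Zbp1-/-. Itgam, whose promoter with 3 PU.1 cores is printed above, had 154 and 166 for WT, 188 and 177 for Tfam+/-, 92.4 and 89.0 for Zbp1-/- and 78.6 and 60.6 for Tfam+/-Zbp1-/-. Cx3cr1 had 209 and 206 for WT, 259.5 and 284 for Tfam+/-, 106 and 121 for Zbp1-/- and 125 and 131 for Tfam+/-Zbp1-/-. Spi1 in Zbp1-/- overlapped WT, whereas Cx3cr1 was lowest in Zbp1-/- and did not follow the order of the sum. Aif1 was low, at 4.66 to 33.0 over the 8 libraries.

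The resident macrophage and C1q genes included the 3 chains of C1q, the first component of the classical complement pathway. They lie next to each other on chromosome 4 (GRCm38.p6) as C1qb at 136880126 to 136886200, C1qc at 136889801 to 136892936 and C1qa at 136895916 to 136898844. C1qb had 379.8 and 414 normalized counts for WT, 792 and 541 for Tfam+/-, 290.3 and 341 for Zbp1-/- and 188 and 209 for Tfam+/-Zbp1-/-. C1qa had 372 and 369.7 for WT, 692 and 412 for Tfam+/-, 177 and 297 for Zbp1-/- and 164 and 171 for Tfam+/-Zbp1-/-. C1qc had 380.2 and 343 for WT, 706 and 437 for Tfam+/-, 241 and 279 for Zbp1-/- and 190.0 and 189 for Tfam+/-Zbp1-/-. The 3 chains kept the full order of genotypes, and in each of them Tfam+/- replicate 1 was well above replicate 2.

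Ms4a7, a membrane protein of resident macrophages, had 76.3 and 78.5 for WT, 124 and 160.2 for Tfam+/-, 55.5 and 60.1 for Zbp1-/- and 41.2 and 46.6 for Tfam+/-Zbp1-/-. Mrc1, the mannose receptor CD206, had 347 and 374 for WT, 270.0 and 435 for Tfam+/-, 327 and 261 for Zbp1-/- and 182 and 196 for Tfam+/-Zbp1-/-, so that only Tfam+/-Zbp1-/- was clear of the other genotypes. The chemokine Pf4 ran from 8.51 to 30.8 and the transglutaminase chain F13a1 from 4.98 to 12.2. Cd163, the haemoglobin scavenger receptor, was listed at 3.93 in 1 WT library, 0.99 in 1 Tfam+/- library and 0 in the other 6.

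Lysosome and microbe-killing genes held the highest levels. Lyz2 (chromosome 10, 117277541 to 117282272, GRCm38.p6) had 2855 and 2844 normalized counts for WT, 3445 and 3141 for Tfam+/-, 1625 and 1471 for Zbp1-/- and 1393 and 1375 for Tfam+/-Zbp1-/-. Its near-identical copy Lyz1 ran from 28.2 to 100.4, and reads may have been split between them. Mpeg1, the pore-forming perforin-2, had 861 and 841 for WT, 1001 and 1144 for Tfam+/-, 649.9 and 453 for Zbp1-/- and 467 and 464 for Tfam+/-Zbp1-/-. Lyz2 followed the full order of genotypes, while for Mpeg1 the genotypes without Zbp1 overlapped each other.

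The protease Ctss, cathepsin S, had 404 and 397 for WT, 559 and 621 for Tfam+/-, 305 and 227 for Zbp1-/- and 244 and 256 for Tfam+/-Zbp1-/-. Cd68, a lysosomal glycoprotein, had 190.2 and 183 for WT, 239.9 and 216 for Tfam+/-, 183 and 151 for Zbp1-/- and 127 and 128 for Tfam+/-Zbp1-/-. Cd14, the lipopolysaccharide co-receptor, had 101 and 112 for WT, 127 and 119 for Tfam+/-, 125 and 149.9 for Zbp1-/- and 72.2 and 60.6 for Tfam+/-Zbp1-/-. Cd14 was the member with both Zbp1-/- libraries above both WT libraries.

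The NADPH oxidase members, the catalytic chain Cybb and the cytosolic chain Ncf1, make the superoxide of phagocytes. Ncf1 had 126 and 112 for WT, 209 and 151 for Tfam+/-, 68.1 and 84.3 for Zbp1-/- and 47.5 and 64.7 for Tfam+/-Zbp1-/-. Cybb had 169 and 166 for WT, 173 and 247 for Tfam+/-, 110.4 and 59.2 for Zbp1-/- and 89.8 and 109 for Tfam+/-Zbp1-/-. Both were lower in all 4 libraries without Zbp1 than in all 4 with it.

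**Figure D2:**
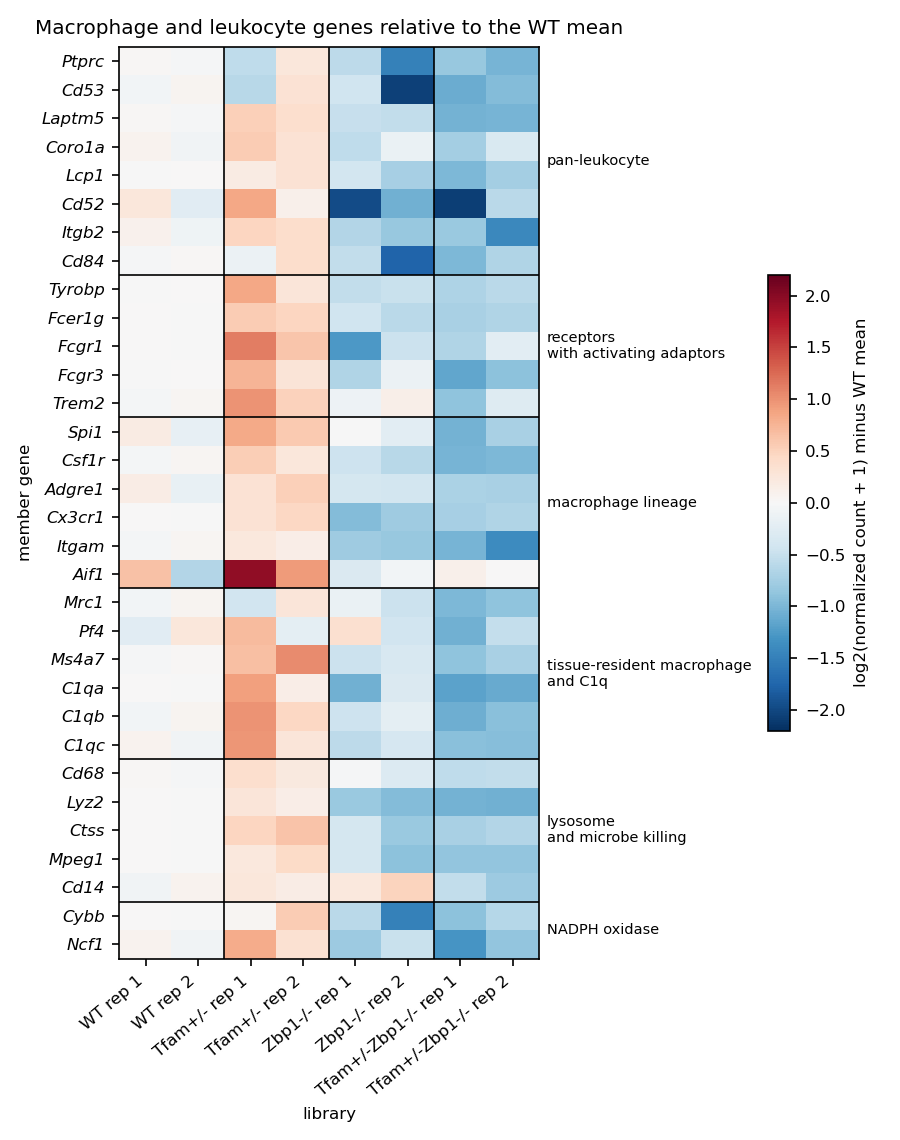
Log2(normalized count + 1) of the 32 tested members in each of the 8 libraries, minus the WT mean of the gene, ordered by role. The Tfam+/- columns are mostly above 0 and the 4 columns without Zbp1 mostly below, with Cd14 above 0 in Zbp1-/- and Ptprc, Cd53 and Cd84 uneven between the 2 Tfam+/- and between the 2 Zbp1-/- libraries.

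The members were compared between genotypes with limma on log2(normalized count + 1), fitted over 13267 genes and all 8 libraries, with a call where the p after Benjamini-Hochberg adjustment was under 0.05. Comparisons that share a genotype share its libraries. Their values stand side by side and are not independent.

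In Tfam+/- against WT, limma called 0 of the 32 tested members, where 0.731% of all genes were called. At an unadjusted p under 0.05, 15 members were higher, against 4.41% of all genes, and 0 were lower, against 4.33%. The log2 difference was above 0 for 29 of 32 members (48.7% of all genes), with a median of 0.44 beside -0.01 for all genes. Both Tfam+/- libraries were above both WT libraries for 26 of 32 tested members, against 23.3% of all genes. Estimates were 0.85 ± 0.18 (SE) for Ms4a7 (limma, adjusted p 0.16), 0.72 ± 0.20 for C1qb (adjusted p 0.30), 0.39 ± 0.14 for Csf1r (adjusted p 0.47) and 0.21 ± 0.10 for Lyz2 (adjusted p 0.56). Members below 0 were Ptprc (-0.15 ± 0.36), Cd53 (-0.15 ± 0.52) and Mrc1 (-0.07 ± 0.24). With a term for the shift shared by Tfam+/- replicate 1 and Zbp1-/- replicate 2, limma called 12 members higher, against 7.39% of all genes. Those called by limma included Ctss (0.70, adjusted p 2.1e-05), Mpeg1 (0.51, adjusted p 7.6e-05), C1qb (0.53, adjusted p 9.7e-04) and Cybb (0.65, adjusted p 0.0067). The term marks 2 libraries picked from these same data because they differed from their partners. It takes that difference out of the spread, so calls with it, here and below, are a description. Ptprc (0.28), Cd53 (0.49) and Mrc1 (0.18), below 0 in the main fit, were above 0 with it.

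In Zbp1-/- against WT, Lyz2 and Cx3cr1 fell. The log2 change was -0.88 ± 0.10 for Lyz2 (limma, adjusted p 0.019) and -0.87 ± 0.13 for Cx3cr1 (adjusted p 0.042). These were the 2 of 32 members called, against 1.06% of all genes called in either direction and 0.166% called lower, and 0 were called higher (0.897% of all genes). At an unadjusted p under 0.05, 18 members were lower, against 3.29% of all genes, and 0 higher, against 16.4%. The log2 difference was below 0 for 30 of 32 members (39.4% of all genes), with a median of -0.53 beside 0.11 for all genes. Both Zbp1-/- libraries were below both WT libraries for 26 of 32 members, against 16.8% of all genes, and above them for Cd14 alone, against 42.1%. The exceptions above 0 were Cd14 (0.37 ± 0.17) and Trem2 (0.01 ± 0.26, below 0 after rescaling by the trimmed mean). Neither call held without any 1 of the WT, Zbp1-/- or Tfam+/-Zbp1-/- libraries, where limma called 0 members. With the shared term limma called 24 members lower, against 7.01% of all genes, among them C1qa (-1.07), Csf1r (-0.56) and Ptprc (-0.60).

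In Tfam+/-Zbp1-/- against Tfam+/-, 22 of the 32 members fell and none rose. Of all genes 5.64% were called, 2.32% lower and 3.32% higher. At an unadjusted p under 0.05, 29 members were lower (6.14% of all genes). All 32 members were below 0 (32.2% of all genes), with a median of -1.24 beside 0.14, and the 4 libraries did not overlap for any of the 32, each lower in Tfam+/-Zbp1-/- (13.5% of all genes lower, 42.4% higher). The summed level in Tfam+/-Zbp1-/- was 0.412 of that in Tfam+/-.

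Of the pan-leukocyte genes, 3 of 8 fell: Laptm5 by 1.48 ± 0.12 on the log2 scale (limma, adjusted p 0.0025), Lcp1 by 1.12 ± 0.15 (adjusted p 0.0094) and Itgb2 by 1.55 ± 0.23 (adjusted p 0.012). Of the receptors and adaptors, 4 of 5 fell, with Fcer1g at -1.20 ± 0.13 (adjusted p 0.0052), Fcgr3 at -1.54 ± 0.24, Trem2 at -1.34 ± 0.26 and Tyrobp at -1.19 ± 0.20. Of the lineage genes, 5 of 6 fell, with Csf1r at -1.39 ± 0.14 (adjusted p 0.0041), Itgam at -1.39 ± 0.17, Spi1 at -1.57 ± 0.23, Adgre1 at -1.12 ± 0.15 and Cx3cr1 at -1.08 ± 0.13.

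Of the resident macrophage and C1q genes, 4 of 6 fell, with C1qb at -1.72 ± 0.20 (limma, adjusted p 0.0059), C1qa at -1.67 ± 0.31, Ms4a7 at -1.66 ± 0.18 and C1qc at -1.55 ± 0.23. The 5 lysosomal genes fell, from -1.25 ± 0.10 for Lyz2 (adjusted p 0.0025) to -0.83 ± 0.14 for Cd68 (adjusted p 0.023), as did Ncf1 (-1.66 ± 0.24). The 10 members not called were Ptprc, Cd53, Coro1a, Cd52, Cd84, Fcgr1, Aif1, Mrc1, Pf4 and Cybb, with adjusted p from 0.0503 (Coro1a) to 0.37 (Cd53). All 22 calls rested on both Tfam+/-Zbp1-/- libraries, as none held without replicate 1 or without replicate 2. The member medians were then -1.16 and -1.25. With the shared term 30 members were called lower, against 10.2% of all genes.

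In Tfam+/-Zbp1-/- against Zbp1-/-, limma called 0 of 32 members, where 0.415% of all genes were called. At an unadjusted p under 0.05, 8 members were lower, against 6.63% of all genes, and 0 were higher, against 5.63%. The median was -0.34 beside 0.02 for all genes, and 24 of 32 members were below 0 (47.6% of all genes). Both libraries were below both Zbp1-/- libraries for 20 of 32 members, against 23.3% of all genes. Estimates were -1.04 ± 0.17 for Cd14 (adjusted p 0.077), -0.66 ± 0.20 for C1qb (adjusted p 0.25), -0.47 ± 0.14 for Csf1r (adjusted p 0.24) and 0.17 ± 0.13 for Cx3cr1 (adjusted p 0.59). With the shared term limma called 10 members lower, against 11.0% of all genes, including Mrc1 (-0.88), Cd14 (-0.96) and C1qb (-0.47).

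**Figure D3:**
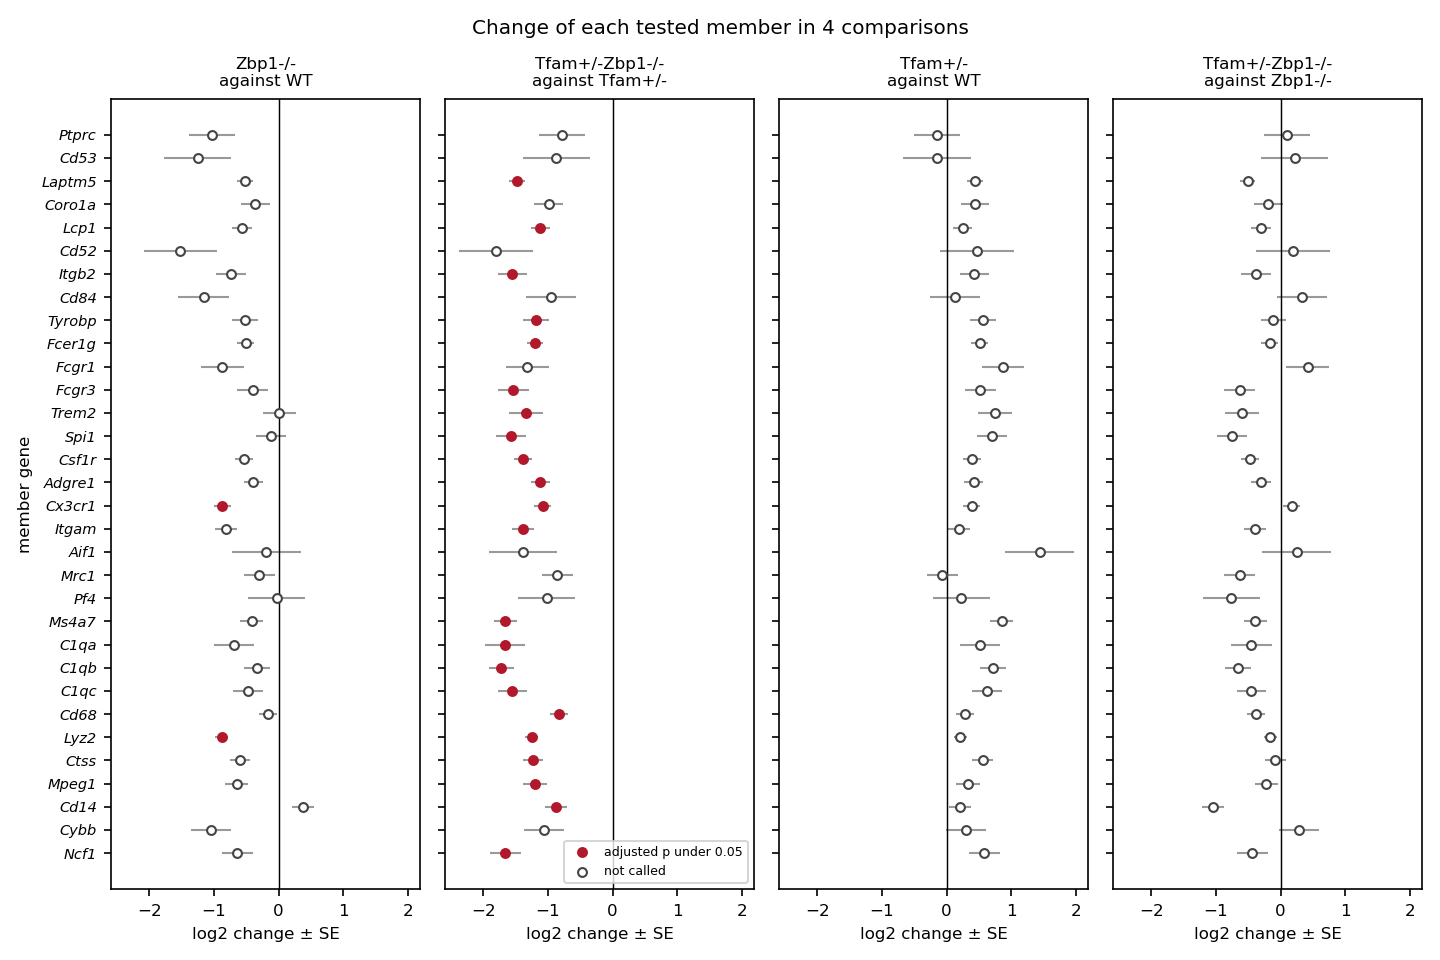
Log2 change of each tested member with its standard error (horizontal axis) in 4 comparisons, ordered by role, with red for members called by limma at an adjusted p under 0.05. The 22 called members in Tfam+/-Zbp1-/- against Tfam+/- lie between -0.83 and -1.72, and in the other 3 panels only Lyz2 and Cx3cr1 (Zbp1-/- against WT) are called.

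The interaction subtracts the Tfam+/- minus WT difference from the Tfam+/-Zbp1-/- minus Zbp1-/- difference, and asks whether loss of a Tfam allele acts alike with and without Zbp1. Limma called 0 of 32 members (0.663% of all genes), with 18 lower at an unadjusted p under 0.05 (7.96% of all genes), 0 higher (8.04%) and a median of -0.68 beside 0 for all genes. The closest to the threshold were Laptm5 (-0.95 ± 0.17, adjusted p 0.072), Cd14 (-1.25 ± 0.24, adjusted p 0.089) and C1qb (-1.38 ± 0.28, adjusted p 0.098). With the shared term 18 members were called lower, against 8.43% of all genes. Both Tfam+/- libraries above WT and both Tfam+/-Zbp1-/- libraries below Zbp1-/- were seen for 18 of 32 tested members and 7.67% of all genes.

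Both genotypes without Zbp1 were then set against both with it, 4 libraries against 4, a contrast chosen after the values were seen. Limma called 23 of 32 members lower, against 6.96% of all genes in either direction and 1.82% lower, and 0 higher (5.13%). At an unadjusted p under 0.05, 29 were lower (5.22% of all genes), and the median was -0.97 beside 0.12. All 4 libraries without Zbp1 were below all 4 with it for 24 of 32 members (2.45% of all genes). The changes were -1.06 ± 0.07 for Lyz2 (adjusted p 0.0014), -0.96 ± 0.10 for Csf1r (adjusted p 0.0039) and -1.10 ± 0.12 for Itgam (adjusted p 0.0045). Coro1a was called at the threshold itself (-0.67 ± 0.15). Trem2 (-0.66 ± 0.18, adjusted p 0.080) and Cd14 (-0.26 ± 0.12, adjusted p 0.25), which fell in Tfam+/-Zbp1-/- against Tfam+/-, were not called here. The count of calls was 6 without WT replicate 1, 7 without WT replicate 2, 7 without Tfam+/-Zbp1-/- replicate 1 and 10 without Tfam+/-Zbp1-/- replicate 2.

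The macrophage sum was set beside the interferon response in the same libraries. A list of 50 interferon-stimulated genes, of which 49 were tested, had mean log2 levels of 6.16 and 6.20 for WT, 8.47 and 8.57 for Tfam+/-, 6.502 and 6.56 for Zbp1-/- and 6.84 and 6.92 for Tfam+/-Zbp1-/-. In Tfam+/- against WT, 39 of 49 rose (0.565% of all genes) with a median log2 difference of 2.34, beside 0.44 for the members. In Tfam+/-Zbp1-/- against Tfam+/-, 38 of 49 fell (2.32% of all genes) with a median of -1.75, beside -1.24 for the members. In the interaction 24 of 49 were called lower (0.445% of all genes), with a median of -2.07, beside -0.68 for the members. In 4 libraries against 4, 19 of 49 fell (1.82% of all genes), with a median of -0.62, beside -0.97. In 2 comparisons the medians had opposite signs. Medians of the interferon-stimulated genes were 0.39 in Zbp1-/- against WT and 0.28 in Tfam+/-Zbp1-/- against Zbp1-/-, while the members had -0.53 and -0.34. Limma called 0 of the 49 in each of these, with 17 and 14 higher and 2 and 3 lower at an unadjusted p under 0.05. Of all genes 16.4% and 5.63% were higher and 3.29% and 6.63% lower at that threshold, and the median of all genes was 0.11 and 0.02. By these levels, the genotypes without Zbp1 had the lowest macrophage sums with mean interferon-stimulated levels above those of WT. That is a description, as Tfam+/-Zbp1-/- was not tested against WT. The libraries fall into 4 genotypes, so no correlation across them is given.

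**Figure D4:**
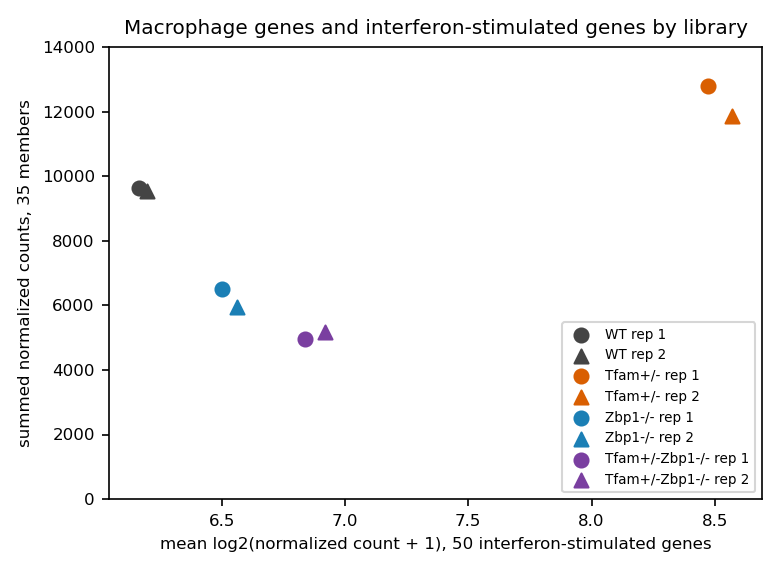
Summed normalized counts of the 35 members (vertical axis) against the mean log2 level of 50 interferon-stimulated genes (horizontal axis), 1 point per library. Tfam+/- is highest on both axes, whereas Zbp1-/- and Tfam+/-Zbp1-/- lie below WT in the member sum and to the right of WT in the interferon-stimulated level.

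Members moved together across libraries. Over the 8 libraries, the 496 pairs of tested members had a median Pearson correlation of 0.82 on the log2 scale, from 0.01 to 0.99, with 443 pairs above 0.5. The libraries share genotype and normalization, and correlations between pairs of other genes were not set beside these. The values are a description and do not show that moving together was particular to the members. Fcer1g (0.991) and Laptm5 (0.990) were closest to the mean of the other members, and Cd14 (0.498), Cd53 (0.633), Aif1 (0.649), Pf4 (0.664) and Ptprc (0.692) farthest from it.

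Some members split the replicates of Tfam+/- and of Zbp1-/-. In log2 units, Tfam+/- replicate 1 minus replicate 2 was -0.93 for Cd53, -0.80 for Ptprc and -0.68 for Mrc1, but 0.75 for C1qa and 0.69 for C1qc. Zbp1-/- replicate 2 minus replicate 1 was -1.61 for Cd53, -0.92 for Ptprc and 0.75 for C1qa. Over the 32 members these differences had a Spearman correlation of 0.67 with each other, and over all 13267 genes 0.81. They followed the GC content of the transcript, with Spearman correlations of 0.74 (Tfam+/-) and 0.58 (Zbp1-/-) over the members and 0.80 and 0.76 over 13147 genes. With transcript length the correlations were -0.70 and -0.44 over the members and -0.33 and -0.34 over the 13147 genes. Whether GC content or length was the closer correlate by itself was not tested. GC content was 39.95% for Cd53, 42.69% for Ptprc and 59.52% for C1qa. In WT and Tfam+/-Zbp1-/- the differences between replicates had Spearman correlations of 0.22 and -0.07 with GC content over the members. The part of this shift in the comparisons was not tested beyond the shared term and the fit of the other 6 libraries.

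**Figure D5:**
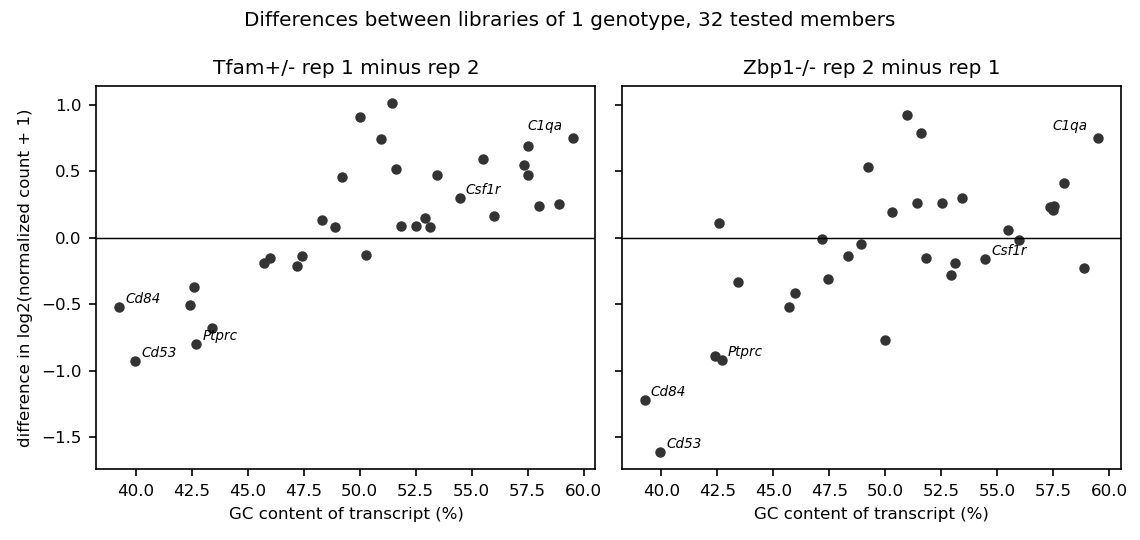
Difference between the 2 replicates of a genotype on the log2 scale (vertical axis) against the GC content of the transcript in percent (horizontal axis), 1 point per tested member. For Tfam+/- (replicate 1 minus 2) and Zbp1-/- (replicate 2 minus 1) the points climb with GC content, with Cd53 lowest in both (-0.93 and -1.61) and C1qa among the higher points (0.75 in both).

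A wider list of 52 other macrophage genes, 43 of them tested, was examined in the same way. In Tfam+/-Zbp1-/- against Tfam+/-, 11 of 43 fell (2.32% of all genes) and 1 rose (3.32%), and 41 were below 0 (32.2%) with a median of -1.01. The 11 included the exchange factors Vav1 (-1.59) and Dock2 (-1.41), the scavenger receptors Stab1 (-1.46) and Msr1 (-1.11), the metal transporter Slc11a1 (-1.46) and the sialic acid receptor Siglec1 (-2.04 ± 0.25, limma, adjusted p 0.0072), an interferon-inducible gene. Limma called 0 of 43 in Tfam+/- against WT (median 0.33), in Zbp1-/- against WT (median -0.51) and in Tfam+/-Zbp1-/- against Zbp1-/- (median -0.22), with 8 higher, 12 lower and 8 lower at an unadjusted p under 0.05 (4.41%, 3.29% and 6.63% of all genes), and 1, 2 and 0 in the other direction.

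Macrophage growth factors and chemokines were read in the same libraries, and 7 of 10 such genes were tested. Which cells of the cultures made them was not measured. Csf1, the main ligand of Csf1r, had 4169 and 4266 normalized counts for WT, 6754 and 5648 for Tfam+/-, 4428 and 5013 for Zbp1-/- and 3874 and 3845 for Tfam+/-Zbp1-/-. It fell in Tfam+/-Zbp1-/- against Tfam+/- (-0.68 ± 0.12, limma, adjusted p 0.023), and its difference in Tfam+/- against WT was 0.55 ± 0.12 (adjusted p 0.16). Its Zbp1-/- libraries were above WT, unlike the summed members. The monocyte chemokine Ccl2 rose in Tfam+/- against WT (1.29 ± 0.19, adjusted p 0.0459) and fell in Tfam+/-Zbp1-/- against Tfam+/- (-1.04 ± 0.19, adjusted p 0.029). Cxcl12 fell in Tfam+/- against WT (-0.89 ± 0.11, adjusted p 0.020). The other Csf1r ligand, Il34, was low, at 15.5 to 36.8 over the 8 libraries.

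Markers of other blood and tissue cells were read in the same libraries. Of 12 T, B and NK cell markers 7 were at 0 in all libraries and the sum was 13.6 to 23.1, mostly from Lck. Of 8 neutrophil markers 5 were at 0 and the sum was at most 4.4, and of 9 erythroid markers 4 were at 0 and the sum was 1.9 to 7.8. Of 6 dendritic cell markers 2 were at 0 and the sum was 22.5 to 51.0. The mast cell markers Tpsb2 and Fcer1a were at 0, and the sum of 97.4 to 195.1 came mostly from Gata2. Megakaryocyte markers summed to 129.1 to 189.3 and endothelial markers to 455.6 to 649.8, with the defining Pecam1 at 0 to 3.81. Of the 4 endothelial markers tested, Emcn followed the order of the member sum without overlap. It had 65.5 and 56.95 for WT, 70.4 and 73.5 for Tfam+/-, 37.8 and 40.1 for Zbp1-/- and 18.9 and 15.7 for Tfam+/-Zbp1-/-. Erg and Tek had the reverse order, and Kdr was lowest in Zbp1-/-. Epithelial markers were lowest in Tfam+/-Zbp1-/- and highest in Tfam+/-, as the members were, but overlapped WT in Zbp1-/-. Their sum was 229.6 and 236.4 for WT, 400.1 and 273.4 for Tfam+/-, 210.7 and 263.0 for Zbp1-/- and 120.5 and 137.2 for Tfam+/-Zbp1-/-, from Krt8 and Krt18, with Epcam at 0 to 5.11. Their part in the result was not tested. The 9 fibroblast markers summed to 333959.8 to 550400.1, with the highest sums in Zbp1-/-.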

How the data were processed

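RNA-seq measured transcript levels in 8 libraries of mouse embryonic fibroblasts. The authors aligned reads with STAR in RNAseq Alignment 2.0.0 to mm10 with RefSeq genes and used RNA-seq Differential Expression 1.0.0, per the series' design text. The submitters' processing notes also list STAR 2.6.1a and Salmon without a role. What the authors deposited is 1 normalized count (a signal of 0 or more, with decimals) for each gene and library. Counting, strand use and scaling were not given in the sources used here, so genes that overlap or have near-identical copies are uncertain. Only 22.1% to 34.8% of values up to 20 reads lay within 0.01 of whole reads, so count models were not run.

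Libraries were grouped by their labels. limma 3.58.1 in R 4.3.3 (eBayes with trend, 4 residual and 2.77 prior degrees of freedom) fitted all 4 genotypes on log2(normalized count + 1), which understates the change of low genes, for 13267 genes with a mean of at least 10. Tests were two-sided with Benjamini-Hochberg adjustment over all genes. Tables were made with Python 3.11.15 and pandas 2.3.3, and the fit was tested on simulated data.

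Members and lists were chosen with earlier results of these data known. Values per library are given for members called in any comparison, the highest member of each role, and Ptprc, Csf1r, Adgre1, Cd68, Spi1 and C1qa. Other genes named are Tfam, Zbp1, called genes of the wider macrophage and growth factor lists (some of which are not reported here), and the 10 genes most correlated with the members. Other lists were interferon-stimulated genes and markers of T, B and NK cells, neutrophils, mast cells, dendritic cells, erythroid cells, megakaryocytes, endothelium, epithelium and fibroblasts. Values of Lyz1, Il34 and single markers were chosen after they were seen. Results were recomputed with a pseudocount of 5 or 0.1, without the filter, after trimmed mean of M-values (TMM) rescaling, with a term shared by Tfam+/- replicate 1 and Zbp1-/- replicate 2, without those libraries, with a block for replicate number, and with each library left out in turn. The correlations between genotypes of replicate 1 minus replicate 2 were -0.70 (Tfam+/- with Zbp1-/-) to 0.06. The shift of Tfam+/- replicate 1 and Zbp1-/- replicate 2 enters these differences. They therefore cannot settle whether replicate numbers paired the libraries.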

Additional observations from a re-analysis of the deposited data

Results flagged for a closer look

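The summed level of the 35 members in Tfam+/- was 1.285 times that in WT, with both Tfam+/- libraries higher, while in Tfam+/-Zbp1-/- it was 0.815 times that in Zbp1-/-, with both libraries lower. The same contrast thus pointed in opposite directions with and without Zbp1, and the difference between the summed levels was not tested. By gene, 18 of the 35 members were higher in both Tfam+/- libraries than in both WT libraries and lower in both Tfam+/-Zbp1-/- libraries than in both Zbp1-/- libraries, all of them among the 32 tested, against 7.67% of all genes tested. The interaction, which tests this difference gene by gene, called 0 of 32 members with limma, with 18 at an unadjusted p under 0.05.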

How the results depend on the processing

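Limma called 0 members in Tfam+/- against WT, 12 with the shared term for Tfam+/- replicate 1 and Zbp1-/- replicate 2, and 11 in the other 6 libraries (7.39% and 7.03% of all genes). In Zbp1-/- against WT it called 2, and 24 with the shared term, 24 in 6 libraries (7.01% and 7.18% of all genes), 1 with no filter, 0 with the replicate number as a block, and 0 to 2 when single libraries were left out. In Tfam+/-Zbp1-/- against Tfam+/- the 22 calls became 0 to 25 when single libraries were left out. In Tfam+/-Zbp1-/- against Zbp1-/- the 0 calls became 10 with the shared term and 13 in 6 libraries (11.0% and 10.8% of all genes), and for the interaction 18 in each (8.43% and 9.16%), or 0 to 2 without single libraries (2 without Tfam+/- replicate 2). In 4 libraries against 4 the 23 calls became 15 with the replicate block and 6 to 23 without single libraries. The shared term and 6-library fits had 15.09 and 15.05 prior degrees of freedom against 2.77. Both set apart libraries picked from these same data, which lowers the spread by construction. The cause of the other moves was not tested.

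Member medians with a library left out were 0.32 to 0.53 in Tfam+/- against WT (0.32 in 6 libraries), -1.45 to -1.16 in Tfam+/-Zbp1-/- against Tfam+/-, -0.78 to -0.64 for the interaction and -0.98 to -0.84 in 4 against 4 (-0.88 in 6 libraries). TMM rescaling took the median of all genes in Zbp1-/- against WT from 0.11 to 0, and the member medians to -0.64 in Zbp1-/- against WT, -1.36 in Tfam+/-Zbp1-/- against Tfam+/- and -1.08 in 4 against 4. It gave summed ratios to WT of 0.601 (Zbp1-/-) and 0.488 (Tfam+/-Zbp1-/-). Without rescaling the ratios were 0.649 and 0.529 for all members, and 0.694 and 0.547 when Lyz2 was left out. With leukocyte-restricted members alone, also without rescaling, the Tfam+/- ratio was 1.403. Cd53 reversed, to -0.58 in Tfam+/-Zbp1-/- against Zbp1-/- in 6 libraries and to -0.90 for the interaction in that fit and with the shared term. Other interaction estimates also changed sign with the shared term. Ptprc went from 0.25 to -0.61, Cd84 from 0.21 to -0.66, Cd52 from -0.28 to 0.55 and Fcgr1 from -0.44 to 0.21. A genotype left with 1 library was assumed to vary like the others. With 2 libraries per genotype and normalized values of unknown scaling, depth per gene is unknown.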

Other observations

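Genes outside the member list whose log2 levels over the 8 libraries were most like the mean of the members included further leukocyte genes. These were Arhgap30 (Pearson 0.992), Dock2 (0.981), the leukotriene pathway protein Alox5ap (0.978), the Fc receptor-like Fcrls (0.977), the complement C5a receptor C5ar1 (0.977) and the signalling adaptor Lcp2 (0.976). Fcrls had 255 and 279 normalized counts for WT, 488 and 393 for Tfam+/-, 193 and 202 for Zbp1-/- and 118 and 133 for Tfam+/-Zbp1-/-, which is the order of the member sum.

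The same 10 genes also held 4 that are not leukocyte genes: the smooth muscle actins Actg2 (0.989) and Acta2 (0.980), the sorting nexin Snx24 (0.977) and the mechanically induced gene Ankrd1 (0.976). Acta2 had 61283 and 60033 normalized counts for WT, 66748 and 66853 for Tfam+/-, 52145 and 51510 for Zbp1-/- and 44127 and 43827 for Tfam+/-Zbp1-/-. Ankrd1 had 903 and 928 for WT, 1198 and 1218 for Tfam+/-, 331 and 346 for Zbp1-/- and 256 and 245 for Tfam+/-Zbp1-/-. These genes were chosen for their likeness to the members over the same libraries, so the values are a description.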
